A study of Mus musculus with 4 samples.

Results

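Semaphorins, plexins, Slits, Robos, Unc5 receptors and netrins were followed in endothelial cells sorted from B16 melanoma, a pigmented tumor line that grows in C57BL/6 mice. The genes were all those whose platform symbol begins with Sema, Plxn, Slit, Robo, Unc5 or Ntn followed by a number or a family letter, with Slitrk genes left out. There were 47 such genes among 18193 named genes on the array: 20 semaphorins, 9 plexins, 3 Slits, 4 Robos, 5 Unc5 genes and 6 netrins. The letters of the rule also matched Unc50 and the antisense transcript Plxna4os1, which belong to none of these families and were set aside. Unc5cl, which the rule also matched, was kept and counted with the Unc5 genes. Each gene was represented by its brightest probe set, that with the highest mean of the 4 arrays, on the log2 RMA scale.

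The mice carried a multicolor Cre reporter, in which tamoxifen switches a cell and its descendants to a single color. All were C57BL/6, all received the same tumor line, and tumors were taken apart 2 weeks after inoculation. The labels give no age and do not name the promoter that drives Cre. The sort kept CD31+ CD144+ cells that lacked CD45. In tumor A and in tumor B, 1 array came from the clone seen most often (expansion) and 1 from the rarest (extinction), so each clone class had 2 arrays. Cells of 1 color need not descend from a single cell. Where 4 levels of a gene are listed, the tumor A pair stands first and expansion precedes extinction. The array medians lay between 5.73 and 5.83, and arrays carry no read depth, so their number limits the precision.

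These families were first described as guidance cues for growing axons and also steer vessels. Class 3 semaphorins are secreted and act through neuropilins paired with plexins, while classes 4 to 6 span the membrane and class 7 is tethered to it. Plexins carry the signal into the cell through small GTPases and usually make it retract. Slits are secreted ligands of Robo receptors, and netrins such as Ntn1 bind DCC, neogenin and the Unc5 receptors. In endothelium, Plxnd1, Robo4 and Unc5b are the best known receptors of these groups.

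The arrays did not hold equal endothelial and tumor signal. The mean log2 level of 20 endothelial markers was 8.45 and 10.65 in the tumor A pair and 11.13 and 9.45 in the tumor B pair. For 13 measured melanoma markers it was 12.28, 7.55, 6.62 and 11.49 in the same array order. In expansion, all 13 melanoma markers were 2-fold or more above extinction in tumor A and 2-fold or more below it in tumor B. Of the 20 endothelial markers, 19 had the opposite signs, 17 of them past 2-fold in both tumors. The sort markers Cdh5 (CD144) and Pecam1 (CD31) were thus lowest in expansion A, at 8.69 and 6.16, whereas CD45 (Ptprc) stayed between 3.63 and 4.27. In such bulk samples, fewer cells of a type and less RNA per cell cannot be told apart.

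Upstream sequence is shown for the genes with the widest opposite differences in each direction that had a single RefSeq promoter entry, Plxnc1 and Unc5c against Sema3c and Robo4. Each line gives the 250 bases before the RefSeq start in GRCm38.p6, read 5′ to 3′ on the gene's strand. Plxnc1 lies at chr10:94944846-94945095 on the minus strand. Unc5c lies at chr3:141465314-141465563, Sema3c at chr5:17574566-17574815 and Robo4 at chr9:37401722-37401971, all on the plus strand. Capitals mark the GC box letters GGGCGG and the ETS core CAGGAA, each on either strand.
Plxnc1: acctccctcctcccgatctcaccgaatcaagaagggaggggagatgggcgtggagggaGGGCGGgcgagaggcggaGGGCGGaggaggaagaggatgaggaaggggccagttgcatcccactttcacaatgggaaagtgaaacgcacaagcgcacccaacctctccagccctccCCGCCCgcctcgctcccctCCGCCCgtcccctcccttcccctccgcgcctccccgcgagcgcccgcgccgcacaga
Unc5c: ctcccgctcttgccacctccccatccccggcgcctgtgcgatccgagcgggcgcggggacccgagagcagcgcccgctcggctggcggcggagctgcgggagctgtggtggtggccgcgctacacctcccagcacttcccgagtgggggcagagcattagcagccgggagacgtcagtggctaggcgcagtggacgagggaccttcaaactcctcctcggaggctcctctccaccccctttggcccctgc
Sema3c: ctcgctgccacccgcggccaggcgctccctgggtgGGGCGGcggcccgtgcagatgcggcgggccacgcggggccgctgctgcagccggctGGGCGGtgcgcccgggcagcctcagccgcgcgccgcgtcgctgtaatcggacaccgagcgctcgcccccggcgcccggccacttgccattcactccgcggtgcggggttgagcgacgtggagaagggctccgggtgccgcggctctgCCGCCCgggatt
Robo4: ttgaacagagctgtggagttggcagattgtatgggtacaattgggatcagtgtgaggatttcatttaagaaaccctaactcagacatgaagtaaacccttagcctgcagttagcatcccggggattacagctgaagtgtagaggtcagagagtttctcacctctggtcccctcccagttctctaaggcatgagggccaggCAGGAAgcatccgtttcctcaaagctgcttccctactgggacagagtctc

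GC boxes were found 4 times in the Plxnc1 window and 3 times in the Sema3c window, and none in the other two. The Robo4 window held CAGGAA once. Of the 47 genes, 39 had RefSeq promoter entries, with 52 windows in all. GGGCGG occurred in 34 of these 52 windows, against 32.7% of all windows of the same length, and the median GC content was 63.2% against 52.4%. CAGGAA occurred in 9 of the 52 (25.7% of all windows), and the second ETS core, CCGGAA, in 5 (12.0%). The E-box forms CACGTG and CATGTG, which MITF can bind, occurred in 3 and 2 of the 52 (6.02% and 12.3% of all windows) and in none of the 4 windows shown. A match describes the sequence only.

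**Figure D1:**
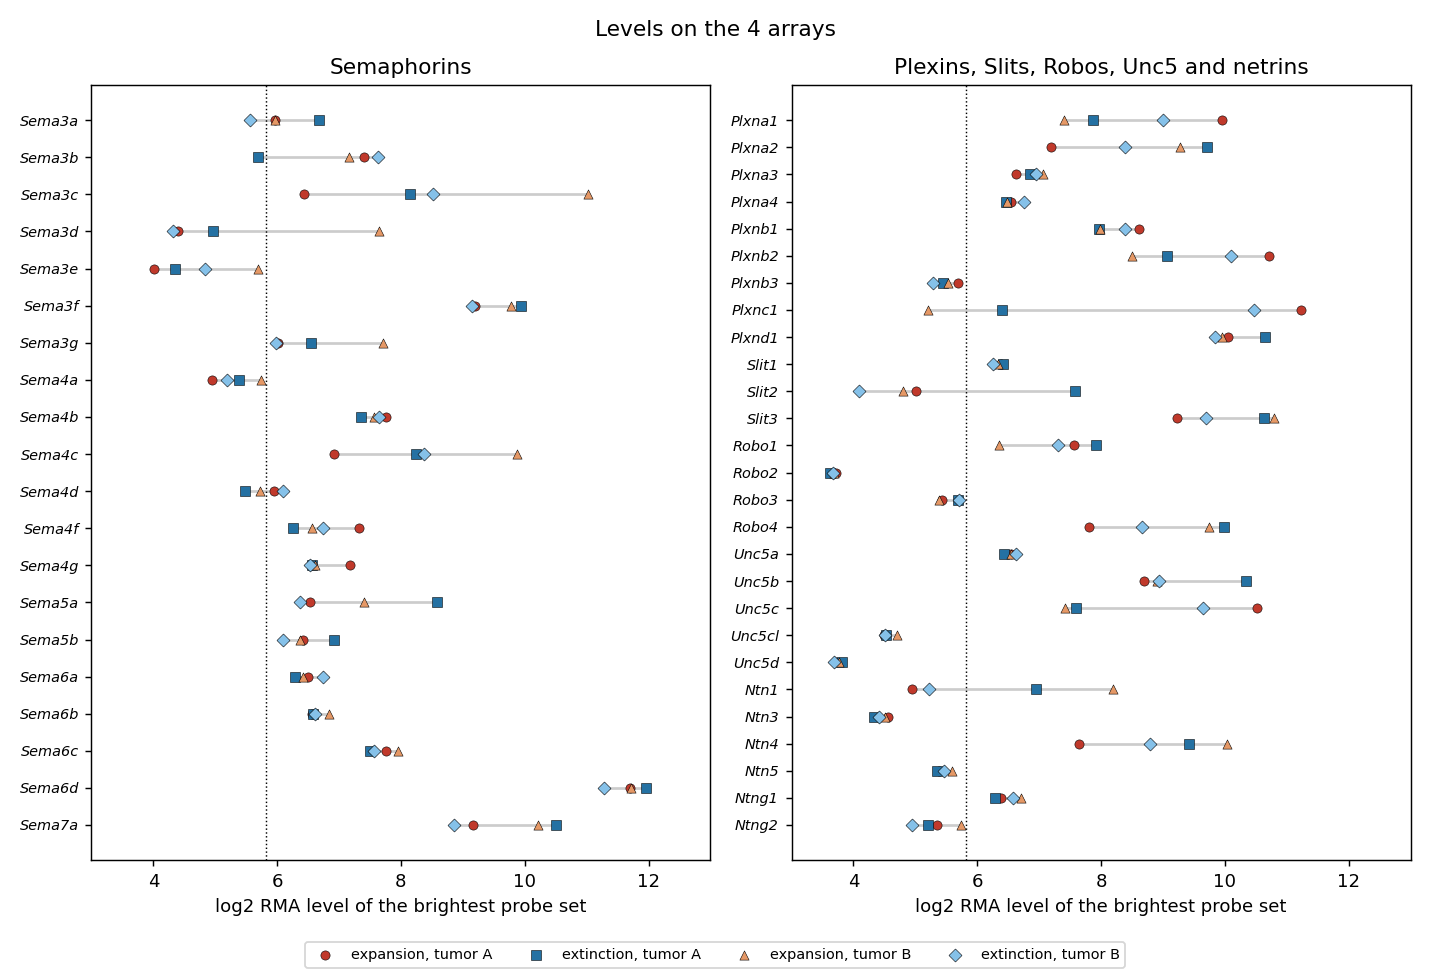
Log2 RMA level of the brightest probe set of each of the 47 genes on the 4 arrays, with symbols for clone class and tumor and a grey line from the lowest to the highest array; the dotted line is the median of all probe sets, 5.83. Plxnc1 spans the widest range, from 5.21 to 11.24, and many genes near or left of the dotted line hardly vary; levels of different probe sets are not comparable with each other.

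The clone difference was taken within each tumor, where 1 array stood for each class and no test was possible. In tumor A, 11 of the 47 genes were at least 2-fold lower in expansion (10.4% of all named genes were) and 6 at least 2-fold higher (5.89%). In tumor B, 4 were at least 2-fold lower (4.77%) and 10 at least 2-fold higher (9.68%). No gene was at least 2-fold apart in the same direction in both tumors (0.0879% of all genes), whereas for 12 the signs were opposite and both differences passed 2-fold (8.78%). Of these, Sema3c, Sema4c, Sema5a, Sema7a, Slit3, Robo4, Ntn1 and Ntn4 were lower in expansion A and higher in expansion B (5.65%), as the endothelial markers were. Plxna1, Plxnb2, Plxnc1 and Unc5c did the reverse (3.14%), as the melanoma markers did. The signs of the endothelial markers were not theirs alone. Of 12 fibroblast markers, 11 had them too (39.5% of all genes), 4 past 2-fold in both tumors (5.65%). Of 13 pericyte and smooth muscle markers, 9 had them, 1 past 2-fold in both tumors. The part of these marker differences in each gene's result was not tested. With the probe sets of a gene averaged, 9 genes were 2-fold apart in opposite directions, but only 6 of the 12 were among them: Ntn1, Ntn4, Plxna1, Sema3c, Sema5a and Sema7a dropped below 2-fold in at least 1 tumor. The share of all genes under that rule is not given here.

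With differences of any size, 24 of the 47 genes were lower in expansion A and higher in expansion B (39.5% of all genes), and 12 were higher in A and lower in B (28.6%). A further 3 were lower in expansion in both tumors (14.1%), and 8 were higher in both (17.3%). For the 47 genes the median differences in tumors A and B were -0.10 and 0.14, beside -0.04 and 0.07 over all genes. Their median size without sign was 0.53 and 0.41, beside 0.31 in each tumor over all genes. By family, 5 of the 9 plexins were higher in expansion A and lower in B, while 13 of the 20 semaphorins and all 3 Slits were lower in A and higher in B. Of the 47 genes, 34 had a mean no lower than the all-probe-set median, beside 11379 of the 18193 named genes.

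**Figure D2:**
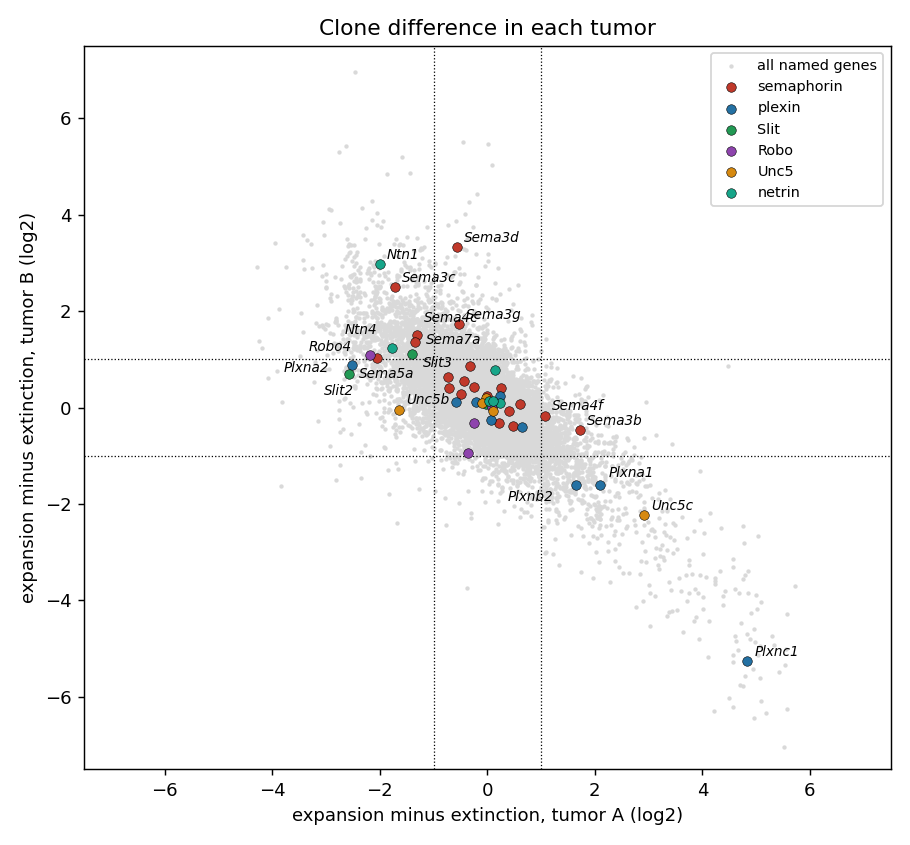
Log2 difference of expansion minus extinction in tumor A (horizontal) and tumor B (vertical) for the 47 genes, colored by family, over all 18193 named genes in grey; dotted lines mark 2-fold. The 12 genes beyond 2-fold in both tumors lie in the upper left and lower right corners, with Plxnc1 farthest out at 4.83 and -5.26, and none lies in the other 2 corners.

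Among the secreted class 3 semaphorins, 6 of 7 were lower in expansion A and higher in expansion B (39.5% of all genes). Sema3c, which attracts and repels cells through Nrp1 and Nrp2, was at 6.43 and 8.15 in the tumor A pair and 11.02 and 8.52 in the tumor B pair. It was 3.29-fold lower in expansion in tumor A and 5.65-fold higher in tumor B. Expansion B was at least 2-fold above each other array, and expansion A at least 2-fold below, so the extinction arrays lay close together in between. A dimmer Sema3c probe set had the same signs, with -0.10 and 1.87.

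Sema3d, Sema3g and Sema3e were also highest in expansion B. Sema3d was at 4.40, 4.97, 7.64 and 4.31 in the array order, so that only expansion B was above the median of all probe sets. Its difference in tumor B was 10.04-fold, although a second probe set of the gene stayed between 3.67 and 3.73. Sema3g, a class 3 semaphorin of arterial endothelium, was at 6.01, 6.55, 7.71 and 5.98, a 3.32-fold difference in tumor B. The plexin-D1 ligand Sema3e lay below the median of all probe sets on every array, at 4.02, 4.34, 5.69 and 4.83.

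In all, 5 genes were by their brightest probe sets at least 2-fold higher in expansion B than on each other array (2.33% of all genes): Ntn1, Sema3c, Sema3d, Sema3g and Sema4c. Some adipocyte genes were also highest on that array, by a list written after the values had been seen. Adiponectin (Adipoq) was at 6.78 there and between 3.75 and 3.78 on the others, and Car3 was at 11.49 and between 4.06 and 6.46. The mean over 12 measured adipocyte genes was 6.86 in expansion B and 5.53 to 5.78 elsewhere, although only 5 of the 12 had a mean no lower than the all-probe-set median. Car3, Adipoq and Pparg were the 3 of 12 at least 2-fold higher in expansion in tumor B. Scd1, Acvr1c and Pck1 were not highest in expansion B, and the remaining genes differed by 0.28 to 0.50 in tumor B. The part of that signal in the levels of these 5 genes was not tested.

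The other class 3 members were not highest in expansion B. Sema3f, which repels cells through Nrp2, was at 9.20, 9.94, 9.78 and 9.15, differences of -0.74 and 0.63. Sema3a, a neuropilin-1 ligand that restrains vessel growth, was at 5.97, 6.68, 5.97 and 5.57, highest in extinction A. Sema3b stood apart from the class by its brightest probe set, at 7.40, 5.68, 7.16 and 7.63. There, extinction A was at least 2-fold below each other array (0.253% of all genes), and expansion was 3.28-fold higher in tumor A. Its 2 dimmer probe sets had the same signs but differed by only 0.60 and 0.30 in tumor A. With the probe sets averaged, the tumor A difference was 0.87, under 2-fold.

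The membrane-bound semaphorins split by member. Sema4c, a plexin-B2 ligand, was at 6.92 and 8.24 in the tumor A pair and 9.87 and 8.37 in the tumor B pair, 2.49-fold lower in expansion in tumor A and 2.83-fold higher in tumor B. Sema5a, which carries thrombospondin repeats, was at 6.53, 8.57, 7.41 and 6.38. Its highest level was thus in extinction A, at least 2-fold above each other array, and its differences were 4.13-fold lower and 2.05-fold higher. The next brightest Sema5a probe set shared the signs, at -1.86 and 0.45.

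Sema7a, a membrane-tethered semaphorin that binds plexin-C1 and beta-1 integrins, was at 9.16, 10.50, 10.22 and 8.85, 2.53-fold lower in expansion in tumor A and 2.58-fold higher in tumor B. Both arrays rich in endothelial markers were therefore above both others. A dimmer Sema7a probe set gave -0.91 and 0.07. Sema6d was bright throughout, at 11.71, 11.96, 11.71 and 11.28, with differences of -0.26 and 0.43. The plexin-B1 ligand Sema4d was at 5.95, 5.48, 5.72 and 6.09, and Sema6a, a ligand of A-type plexins, was at 6.51, 6.29, 6.42 and 6.74. Levels of both varied by less than 2-fold by these probe sets, their brightest, but a dimmer Sema6a probe set gave -1.0 and 2.51. Sema4f was 2.10-fold higher in expansion A than in extinction A and differed by -0.17 in tumor B. Its dimmer probe set gave 3.60 and -1.83. By their brightest probe sets, the remaining members of classes 4 to 6 (Sema4a, Sema4b, Sema4g, Sema5b, Sema6b and Sema6c) differed by less than 2-fold in both tumors. A second Sema4a probe set gave -0.62 and 1.20.

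Of the plexins, the receptors of semaphorins, Plxnc1 had the widest difference of all 47 genes. Its level was 11.24 and 6.40 in the tumor A pair and 5.21 and 10.47 in the tumor B pair, so it was high on both arrays rich in melanoma markers and below the median of all probe sets in expansion B. Expansion was 28.5-fold higher in tumor A and 38.4-fold lower in tumor B. Only 27 of the 18193 genes had a larger difference in that direction in tumor A, and 16 did in tumor B. The second probe set gave 5.21 and -4.77, and 4 of the other 5 had the same signs. Its ligand Sema7a differed in the opposite sense in each tumor, as given above. By the brightest probe sets, expansion B was at least 2-fold below each other array for Plxnc1 alone (0.528% of all genes). The second Plxnc1 probe set did not show this, at 5.21 in extinction A and 5.11 in expansion B.

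Plxna1, a co-receptor with neuropilins, was at 9.96, 7.87, 7.41 and 9.002, a 4.26-fold higher level in expansion in tumor A and a 3.02-fold lower one in tumor B. A second, dimmer Plxna1 probe set had the opposite signs, at -0.52 and 0.17. Plxnb2, the receptor of Sema4c, was at 10.72, 9.06, 8.50 and 10.10, 3.15-fold higher and 3.04-fold lower, while its ligand Sema4c differed the other way in both tumors.

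Plxna2 ran the other way from Plxna1. It was at 7.20 and 9.72 in the tumor A pair and 9.27 and 8.38 in the tumor B pair, 5.73-fold lower in expansion in tumor A and 1.85-fold higher in tumor B. Its 3 other probe sets had the same signs and passed 2-fold in both tumors, at 1.38 to 1.64 in tumor B. Expansion A was at least 2-fold below each other array for the brightest probe sets of Plxna2, Ntn4, Sema3c and Sema4c (1.71% of all genes). The 3 other Plxna2 probe sets did not show this, at 6.60 to 7.12 in expansion A and 7.15 to 7.38 in extinction B. Nor did the dimmer Sema3c and Ntn4 probe sets.

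Plxnd1, the endothelial receptor of Sema3e, was bright on every array, at 10.06, 10.65, 9.96 and 9.83, and differed by -0.59 in tumor A and 0.12 in tumor B. Its 4 levels thus spanned less than 2-fold. The Sema4d receptor Plxnb1 was at 8.62, 7.97, 7.98 and 8.39. By their brightest probe sets, Plxna3, Plxna4 and Plxnb3 varied by less than 2-fold over the 4 arrays, Plxnb3 below the median of all probe sets. A dimmer Plxna4 probe set differed by -0.39 in tumor A and 1.34 in tumor B.

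**Figure D3:**
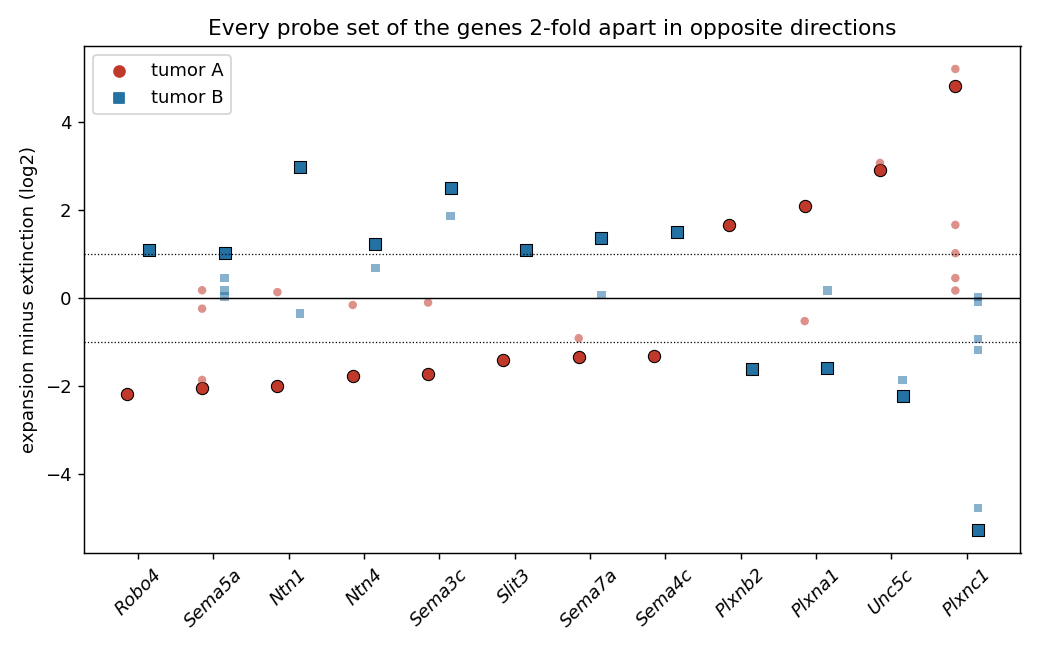
Log2 difference of expansion minus extinction in tumor A (red circles) and tumor B (blue squares) for every probe set of the 12 genes at least 2-fold apart in opposite directions; large outlined symbols are the brightest probe set and small faint ones the others. Of the 8 genes with several probe sets, Ntn1, Plxna1, Plxnc1 and Sema5a have at least 1 dimmer probe set with another combination of signs.

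The Slit and Robo genes followed several patterns. Slit3 was at 9.23 and 10.64 in the tumor A pair and 10.80 and 9.70 in the tumor B pair, 2.65-fold lower in expansion in tumor A and 2.15-fold higher in tumor B. Slit2 was at 5.01, 7.58, 4.80 and 4.10, at least 2-fold higher in extinction A than on each other array. Extinction A stood above all others in this way for Slit2, Sema5a and Unc5b by their brightest probe sets (0.698% of all genes). The other 2 Slit2 probe sets had means of 4.78 and 3.80 and did not show that level, at 5.03 and 4.10 in extinction A. Slit1 stayed between 6.26 and 6.42.

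Robo4, the Robo receptor confined largely to endothelium, was at 7.81, 9.98, 9.75 and 8.66, 4.51-fold lower in expansion in tumor A and 2.13-fold higher in tumor B. These are the signs of the endothelial markers Cdh5 and Pecam1: Cdh5 gave -2.77 and 1.71, and Pecam1 -2.66 and 1.70. Robo1, which binds Slits, had the same sign in both tumors, at 7.56 in expansion A and 7.92 in extinction A, and at 6.36 in expansion B and 7.31 in extinction B. Its mean clone difference was -0.65 ± 0.67 (SE, n = 2 per class), less than its standard error, and -0.24 ± 0.31 (SE) with its probe sets averaged. Robo3 was also lower in expansion in both tumors, at 5.43, 5.68, 5.38 and 5.71, below the median of all probe sets. A second, dimmer Robo3 probe set had the opposite sign in both, at 0.29 and 0.11. Robo2 stayed between 3.62 and 3.71.

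Among the netrins, Ntn1 and Ntn4 had the signs of the endothelial markers. Ntn1, which attracts or repels according to the receptor, was at 4.95 and 6.95 in the tumor A pair and 8.19 and 5.22 in the tumor B pair, 4.01-fold lower in expansion in tumor A and 7.86-fold higher in tumor B. In tumor B only 86 of the 18193 genes had a larger difference in that direction. A second probe set stayed between 4.12 and 4.47, below the median of all probe sets, with the opposite signs. Ntn4, a laminin-binding netrin of vascular basement membranes, was at 7.65, 9.43, 10.03 and 8.80, 3.42-fold lower and 2.35-fold higher, with -0.15 and 0.68 by its dimmer probe set. Ntng1 was at 6.39, 6.28, 6.71 and 6.57, and Ntn3, Ntn5 and Ntng2 lay below the median of all probe sets with differences under 2-fold.

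Unc5b and Unc5c, both netrin receptors, ran differently. Unc5b, the endothelial member that also binds Robo4, was at 8.69 and 10.35 in the tumor A pair and 8.90 and 8.94 in the tumor B pair. It was 3.14-fold lower in expansion in tumor A and differed by -0.04 in tumor B, where the endothelial markers were higher in expansion. A second Unc5b probe set was lower in expansion in both tumors, by -1.03 and -0.70. It was at 7.36, 8.39, 7.59 and 8.29, so extinction A was not 2-fold above extinction B. Unc5c was at 10.52, 7.60, 7.41 and 9.64, 7.58-fold higher in expansion in tumor A and 4.69-fold lower in tumor B, and its second probe set gave 3.07 and -1.86. Unc5a stayed between 6.44 and 6.62, and Unc5d and Unc5cl lay below 5.83 on every array.

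Partners of these families were described from lists drawn up with earlier results known. None of the 22 measured co-receptors and binding partners, 44 intracellular partners or 21 ephrins and Eph receptors passed limma's test in either direction in either comparison. Limma called 0 of 45037 probe sets (0.0%) in each comparison, so that outcome is not particular to the partners. Nrp1, the neuropilin of Sema3a and Sema3c, was at 10.96, 12.35, 12.77 and 11.26, with the signs of the endothelial markers, whereas Nrp2 was at 9.24, 9.43, 9.91 and 9.53. The netrin receptor neogenin (Neo1) had the signs of the melanoma markers, at 10.87, 8.25, 8.65 and 10.40, and Dcc stayed between 6.60 and 6.68. The widest differences among co-receptors were those of Met, which associates with B-type plexins, at 4.11 and -5.17 in tumors A and B, the adhesion molecule Nrcam, at 3.95 and -2.33, and Kdr, at -2.80 and 2.31.

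Among the intracellular partners, 28 of 44 were lower in expansion A and higher in expansion B (39.5% of all genes) and 15 were the reverse (28.6%), with medians of -0.56 and 0.27. Past 2-fold in both tumors, 9 had the first combination of signs (5.65%) and 2 the reverse (3.14%). Arhgap39, a Robo-associated GTPase activator and 1 of those 2, had differences of 2.28 and -1.93. Of the 21 ephrins and Eph receptors, 10 were lower in A and higher in B (39.5% of all genes) and 3 the reverse (28.6%). They were led by Efna1, at -2.46 and 1.24, Efnb2, at -2.22 and 1.35, and the receptor Epha2, at -1.27 and 1.71.

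Other cell types differed too, and their part was not tested. The mean of 12 fibroblast markers was 11.83 and 12.67 in the tumor A pair and 12.98 and 12.19 in the tumor B pair, with none of them below the median of all probe sets on average. For 13 pericyte and smooth muscle markers it was 9.80, 10.72, 9.96 and 9.62, highest in extinction A. By their brightest probe sets, Slit2, Sema5a and Unc5b were also highest on that array. The means of 14 leukocyte markers lay between 5.64 and 5.98, of 6 lymphatic markers between 6.20 and 7.06, of 8 Schwann cell and neuron markers between 5.41 and 6.12, and of 8 keratinocyte markers between 4.94 and 5.24. These means hide single markers that differed more. S100b was at 10.74, 5.70, 6.65 and 9.31, and Mbp at 9.57, 5.09, 9.28 and 8.42. Cd14 was at 7.67, 10.20, 11.06 and 8.74, and Reln at 4.52, 5.60, 7.47 and 4.43. At least 2-fold lower in expansion A were 3 leukocyte, 2 lymphatic, 2 Schwann cell and neuron and 1 keratinocyte markers (10.4% of all genes). Another 2 Schwann cell and neuron markers were at least 2-fold higher (5.89%), and 0 of the others.

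Across both tumors, expansion was compared with extinction as the study's design asks. None of the 47 genes passed the test: limma with Benjamini-Hochberg adjustment called 0 of them and 0 of 45037 probe sets (0.0%), and 0 of the 47 had an unadjusted p under 0.05 (1.04% of all probe sets). For Plxnc1, Unc5c, Ntn1 and Robo4, whose signs were opposite in the tumors, the standard error exceeded the mean difference. Plxnc1 had a clone difference of -0.21 ± 3.64 (SE, n = 2 per class), Unc5c of 0.35 ± 1.86 (SE), Ntn1 of 0.48 ± 1.84 (SE) and Robo4 of -0.54 ± 1.17 (SE). Among genes with the same sign in both tumors, Robo3 differed by -0.29 ± 0.03 (SE), Sema6c by 0.33 ± 0.10 (SE) and Ntng2 by 0.47 ± 0.23 (SE), with an adjusted p of 1 by limma for each. These standard errors are each gene's own, while limma's test also draws on the spread of all probe sets. With the probe sets of a gene averaged, the differences were -0.04 ± 0.06 (SE) for Robo3, 0.07 ± 0.01 (SE) for Sema6c and 0.19 ± 0.10 (SE) for Ntng2. These 3 genes were picked after their values were seen.

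Tumor B was then compared with tumor A across clone classes. No gene was at least 2-fold higher in tumor B in both classes (0.0715% of all genes) and none at least 2-fold lower (0.055%). Limma with the same adjustment called 0 of the 47 genes and 0 of 45037 probe sets (0.0%), and 0 of the 47 had an unadjusted p under 0.05 (1.44% of all probe sets). Sema3e was the nearest: it was higher in tumor B by 1.67 in expansion and 0.49 in extinction, a mean of 1.08 ± 0.46 (SE, n = 2 per tumor) with an unadjusted p of 0.0531 and an adjusted p of 1 by limma. With its probe sets averaged, the mean difference of Sema3e was 0.32 ± 0.21 (SE). Sema3c was higher by 4.59 in expansion and 0.37 in extinction, and Sema4c by 2.95 and 0.13. Robo1 was lower in tumor B by -1.20 and -0.61, a mean of -0.91 ± 0.51 (SE), or -0.44 ± 0.17 (SE) with its probe sets averaged. Slit2 differed by -0.21 in expansion and -3.49 in extinction, and Sema3b by -0.24 and 1.95.

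**Figure D4:**
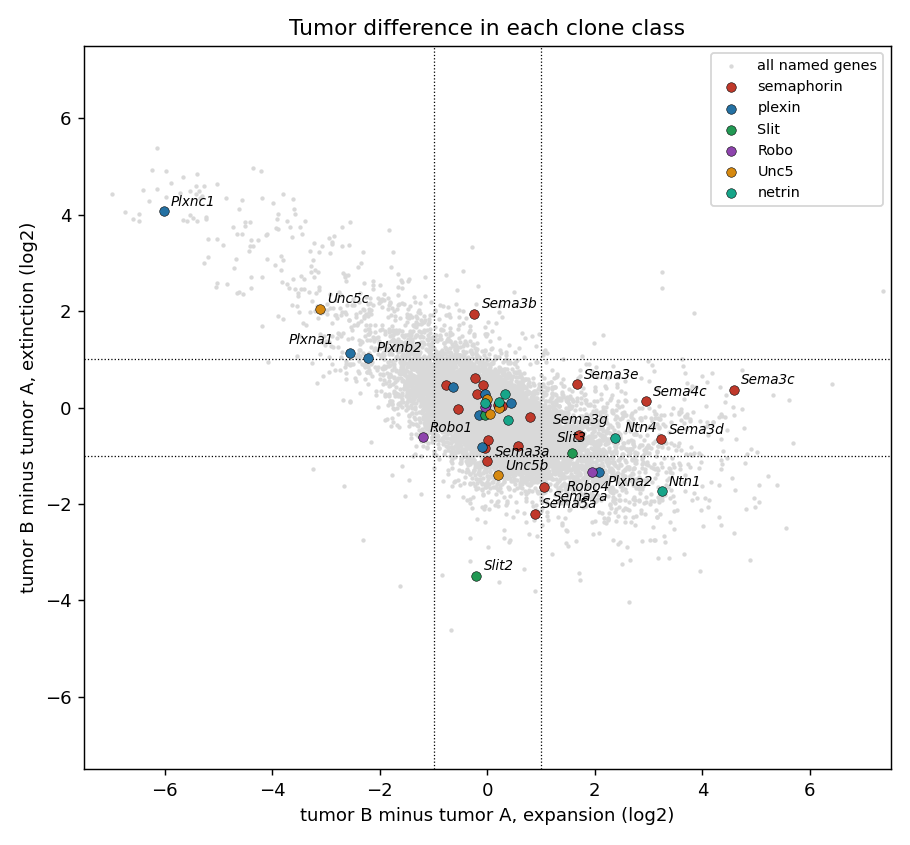
Log2 difference of tumor B minus tumor A in the expansion arrays (horizontal) and in the extinction arrays (vertical) for the 47 genes, colored by family, over all 18193 named genes in grey; dotted lines mark 2-fold. No gene of these families lies in the upper right or lower left corner beyond 2-fold; Sema3c lies far right at 4.59 and 0.37, and Slit2 at the bottom at -0.21 and -3.49.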

How the data were processed

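The values were the deposited log2 expression values of 4 Affymetrix Mouse430_2 arrays, made by the authors with RMA (affy), according to the submitters' processing notes, with no version among the sources used here. TRIzol extracts went through 2 rounds of amplification, per the labels' protocols. RMA brings the arrays to 1 distribution, so a level on 1 array depends on the others.

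Of 45101 probe sets, 64 controls were left out. Gene names came from the platform annotation (18193 genes from 34945 probe sets with 1 symbol; 932 with several and 9160 with none were tested unnamed), and all 47 genes had their gene ID in RefSeq's GRCm38.p6 table. The 47 genes had 102 probe sets, and 33 genes had more than 1.

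Clone classes and tumors were compared with limma 3.58.1 in R 4.3.3 (lmFit, eBayes, two-sided) over 45037 probe sets, Benjamini-Hochberg threshold 0.05. Differences within a tumor were counted at 2-fold without a test. Values on every array are given for genes 2-fold apart in both tumors or both classes, the 3 brightest of each family and genes fixed for their place in vessels; of each partner list, the 3 widest and Nrp1, Nrp2, Dcc and Neo1. Of the intracellular partners, 2 of the 3 widest are not reported here. The members and lists were chosen with earlier results of these data known.

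Arrays of 1 replicate number came from the same tumor, which pairs them; their deviations from the class means correlated at r = -0.661 over 18193 genes. The titles call the arrays biological replicates, and with 2 per class the p-values measure only their spread. The fit was also run on simulated arrays drawn independently, without the pairing by tumor, and the outcome is not given here. The alternatives were a replicate block, other normalization, filtering, variance model, fold threshold and probe set rule, and leaving out each array.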

Additional observations from a re-analysis of the deposited data

Results flagged for a closer look

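The clone difference had opposite signs in the 2 tumors and was at least 2-fold in each for 12 genes. No test of that contrast between tumors was possible, since a single array stood for each class in each tumor, and it was not tested. As the difference in tumor A minus that in tumor B, the value was 10.09 on the log2 scale for Plxnc1, 5.15 for Unc5c, 3.69 for Plxna1 and 3.26 for Plxnb2. These 4 receptors had the signs of the melanoma markers. It was -4.98 for Ntn1, -4.22 for Sema3c, -3.27 for Robo4 and -3.08 for Sema5a. For the other 4 genes with the signs of the endothelial markers it was -3.01 for Ntn4, -2.82 for Sema4c, -2.70 for Sema7a and -2.51 for Slit3.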

How the results depend on the processing

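In both comparisons limma called 0 of the 47 genes under every alternative run. A replicate block was added (tumor for the clone comparison, with 0 probe sets called, and clone class for the tumor comparison). Other runs used a filter on dim probe sets (34 of the 47 genes tested) or a second quantile normalization. Array medians taken off, a trended robust eBayes and averaged probe sets were also tried. Each array was left out once as well, and no count at an unadjusted p is drawn from those fits, which keep 1 array in a group. A crossed pairing of the arrays, added after seeing the data, also called 0. Where 1 array was left out, the lone array of its class or tumor was assumed to vary like the others. The 12 genes 2-fold apart in opposite directions numbered 15 at 1.5-fold and 10 after a second quantile normalization, which took Robo4 and Slit3 to 0.99 and 0.97 in tumor B. With averaged probe sets there were 9, of which 6 were among the 12 and 3 (Plxna2, Plxnb1 and Sema4f) were not. Shares of all named genes under these altered rules are not given, so no comparison with all genes is drawn from these counts. Averaging left Ntn4 at -0.96 and 0.96, Plxna1 at 0.79 and -0.71, and Ntn1 and Sema3c at -0.93 and -0.91 in tumor A. Of the differences recomputed for single genes, 98 stayed on their side of 2-fold, 16 crossed it and 0 past 2-fold changed sign. No array could be left out of a difference within a tumor, which rests on 1 array per class. Genes near the low end of the scale, such as Robo2, Unc5d and Ntn3, give little room to show a difference.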

Other observations

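Taking the brightest probe set hid opposite differences in 5 further genes, each of which had a dimmer probe set at least 2-fold apart in opposite directions in the tumors; these were found after the values had been seen. With them, 17 of the 47 genes had such a probe set, bright or dim, beside 12.5% of all named genes by the same rule. Plxnb1, the Sema4d receptor, was at 8.48 and 5.51 in the tumor A pair and 5.22 and 8.04 in the tumor B pair by its second probe set, with differences of 2.96 and -2.82 where the brightest gave 0.65 and -0.41. Sema4f was at 7.87, 4.26, 4.78 and 6.61 by its second probe set, with differences of 3.60 and -1.83 against 1.07 and -0.17. Both had the signs of the melanoma markers.

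Sema6a had the reverse disagreement. Its second probe set was at 5.09, 6.09, 7.34 and 4.82, with differences of -1.0 and 2.51, the signs of the endothelial markers, while its brightest gave 0.22 and -0.32. Sema3f differed by -1.27 and 1.02 by its second probe set, and Plxna2 by at least 2-fold in both tumors in 3 dimmer probe sets. Which transcripts these probe sets read was not examined here.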
